A study of Mus musculus with 9 samples.

Results

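The 59 genes described here are the classical and related cadherins and the protocadherins of the mouse. They are every protein-coding gene of GENCODE release M1 (37273 genes, of which 22367 are protein-coding) whose symbol starts with Pcdh, or with Cdh followed by a number. The rule uses names and no measured value. They comprise 23 *Cdh* genes, 24 genes of the clustered *Pcdha*, *Pcdhb* and *Pcdhg* arrays on chromosome 18, and 12 *Pcdh* genes elsewhere, on 11 chromosomes and with 154 annotated transcription start sites (TSSs). BAP1 binding was mapped by ChIP-Seq in Ba/F3, a mouse B cell precursor line that grows with IL-3, and the result is 1 list of 13164 peaks. The list joins the immunoprecipitation of endogenous BAP1 from wild type Ba/F3 cells with an anti-BAP1 antibody and that of tagged BAP1 with an anti-FLAG antibody from Ba/F3 cells that stably express triple-FLAG-tagged murine BAP1 under puromycin selection. The series has 9 samples in all, and its 4 input samples and 3 H2AK119ub samples were not analysed here. Each immunoprecipitation was sequenced once and the list does not tell them apart or give a depth or a score, so no value below has a replicate error, and intervals are 95% Wilson intervals that cover counting error only.

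Cadherins are membrane proteins that bind cadherins on neighboring cells through calcium-dependent extracellular repeats. Type I and type II cadherins carry a cytoplasmic tail that holds catenins and, through them, the actin cytoskeleton, and they hold epithelial, endothelial, muscle and neural cells together. Protocadherins lack the catenin-binding tail. *Pcdha* and *Pcdhg* isoforms start at alternative first exons, each with its own promoter, that are joined to shared exons, whereas the *Pcdhb* genes are separate genes. The clustered protocadherins are best known for the identity of single neurons. BAP1 is a deubiquitinase that removes the ubiquitin of H2AK119ub, a histone mark set by a Polycomb repressive complex. Several protocadherin genes are known Polycomb targets in other cells. RNA was not measured in the data used here, so whether Ba/F3 cells express any of these genes is not known from them.

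BAP1 peaks were rare at these genes. A gene-proximal peak, meaning one whose middle lay within 1 kb of a TSS of the gene, was found at 2 of the 59, *Cdh24* and *Cdh15*, a share of 3.39% (95% interval 0.935 to 11.5). Over all protein-coding genes the share was 39.6%, or 8850 of 22367. All intervals here take each gene as counted on its own. That of the 59 is too narrow, since 23 array genes lie in 1 stretch between neighboring peaks. The other 57 genes had none, and among them were E-cadherin (*Cdh1*), N-cadherin (*Cdh2*), VE-cadherin (*Cdh5*), the mesenchymal cadherin *Cdh11*, and each member of the clustered arrays. Just inside the limit of 1 kb lay *Cdh15*, with its peak 349 bp from the TSS, and just outside it *Pcdhgc5*, with its nearest peak at 5.79 kb, so no gene sat near the limit.

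The DNA of the *Cdh24* peak, and of stretches before other TSSs, is printed here with CpG dinucleotides in capitals. Each sequence is read 5′ to 3′ on the strand of its gene in build NCBIM37 (mm9). The first is the whole peak at *Cdh24*. The next stretch holds the 200 bases before the TSS of *Cdh15*, whose peak itself lies in the 5′ untranslated region. Those of *Pcdh10*, *Cdh11* and *Cdh1* are the 200 bases before the TSS at CpG-rich promoters with no gene-proximal peak. The *Cdh24* peak crosses its TSS and the other stretches end before theirs, so the counts below cover unlike positions.
Cdh24 peak, chr14:55260173-55260372, minus strand: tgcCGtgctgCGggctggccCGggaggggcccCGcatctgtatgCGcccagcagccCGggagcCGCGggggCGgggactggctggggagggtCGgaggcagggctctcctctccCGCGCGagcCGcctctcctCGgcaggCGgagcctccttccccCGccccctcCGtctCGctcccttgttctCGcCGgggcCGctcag
Cdh15 upstream, chr8:125371666-125371865, plus strand: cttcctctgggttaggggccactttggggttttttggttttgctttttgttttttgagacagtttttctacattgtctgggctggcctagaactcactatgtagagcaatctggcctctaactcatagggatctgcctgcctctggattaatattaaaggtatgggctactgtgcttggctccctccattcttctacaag
Pcdh10 upstream, chr3:45182120-45182319, plus strand: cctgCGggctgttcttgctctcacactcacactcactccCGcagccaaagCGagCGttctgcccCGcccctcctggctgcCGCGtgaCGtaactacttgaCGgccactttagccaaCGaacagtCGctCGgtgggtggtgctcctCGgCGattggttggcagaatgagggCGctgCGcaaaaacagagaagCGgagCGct
Cdh11 upstream, chr8:105309012-105309211, minus strand: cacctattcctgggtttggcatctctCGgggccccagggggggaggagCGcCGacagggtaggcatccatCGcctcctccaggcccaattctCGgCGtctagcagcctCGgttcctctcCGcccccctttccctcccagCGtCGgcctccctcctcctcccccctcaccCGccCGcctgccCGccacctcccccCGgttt
Cdh1 upstream, chr8:109127051-109127250, plus strand: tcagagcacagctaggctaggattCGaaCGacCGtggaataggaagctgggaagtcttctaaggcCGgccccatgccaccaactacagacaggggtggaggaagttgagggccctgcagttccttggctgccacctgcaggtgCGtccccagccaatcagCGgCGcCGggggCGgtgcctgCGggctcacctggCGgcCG
The *Cdh24* peak held 22 CpG dinucleotides in 200 bases, a GC content of 77.5% and an observed over expected CpG ratio of 0.733. The stretch before *Pcdh10* held 18 CpG dinucleotides, that before *Cdh11* 14 and that before *Cdh1* 12, against 0 before *Cdh15*. The *Cdh15* peak itself, which is not printed, held 6 CpG dinucleotides, with a ratio of 0.325 and a GC content of 65.0%. CpG dinucleotides were thus dense both at the bound *Cdh24* and at the unbound *Pcdh10*, *Cdh11* and *Cdh1*.

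*Cdh24* encodes a type II cadherin. The gene spans chr14:55250829-55260201 on the minus strand. Its peak, from 55260173 to 55260372, has its middle 72 bp upstream of the only annotated TSS, with 29 of its bases in the first exon and 171 before the gene. The same peak lay 484 bp downstream of the TSS of *Gm17606*, a protein-coding model on the opposite strand from 55259789 to 55262854. It counts for both genes, which the list cannot separate. *Cdh15* encodes M-cadherin, known from muscle precursor cells and the joining of myoblasts. It spans chr8:125371866-125391297 on the plus strand. Its peak, from 125372115 to 125372314, has its middle 349 bp downstream of the TSS, and its 200 bases fall within the untranslated part of the first exon. No other TSS lay within 1 kb of it. The promoters differ in composition: the CpG ratio from 500 bp before to 500 bp after the TSS was 0.745 at *Cdh24* and 0.261 at *Cdh15*. The *Cdh24* peak held the SP1/KLF motif and the CTCF core, and the *Cdh15* peak the SP1/KLF motif, an E-box and a CCAAT box (letters below).

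The 2 peaks fell in different structural classes. Type I cadherins had a gene-proximal peak at 1 of 5 genes and type II cadherins at 1 of 13, and the remaining cadherins at 0 of 5, which together is 2 of 23 (8.70%, 95% interval 2.42 to 26.8). The protocadherins outside the arrays had 0 of 12, which allows a share of up to 25.0%. They divide into 0 of 4 delta-1 genes, 0 of 5 delta-2 genes and 0 of 3 others. The arrays had 0 of 24 genes, which would allow up to 12.5% if each gene counted on its own. That limit is too narrow, since 23 of them, all *Pcdhb* genes included, lie in 1 stretch between neighboring peaks. The intervals of the classes with 5 genes or fewer include the 39.6% of all protein-coding genes, so their counts alone cannot be told from it. Those of the type II cadherins (1.37 to 33.3) and of the *Pcdhb* array (0.0 to 15.5) lie below it. Both are too narrow, since several type II genes also share a stretch between neighboring peaks, such as *Cdh7* with *Cdh19*. Whether the type II share is below that of all genes is therefore not settled by its interval. All *Pcdhb* TSSs had a CpG ratio below 0.6, however, and 14.1% of all protein-coding genes below that ratio had a gene-proximal peak. The *Pcdhb* interval includes that share, so the *Pcdhb* count alone cannot be told from it.

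**Figure D1:**
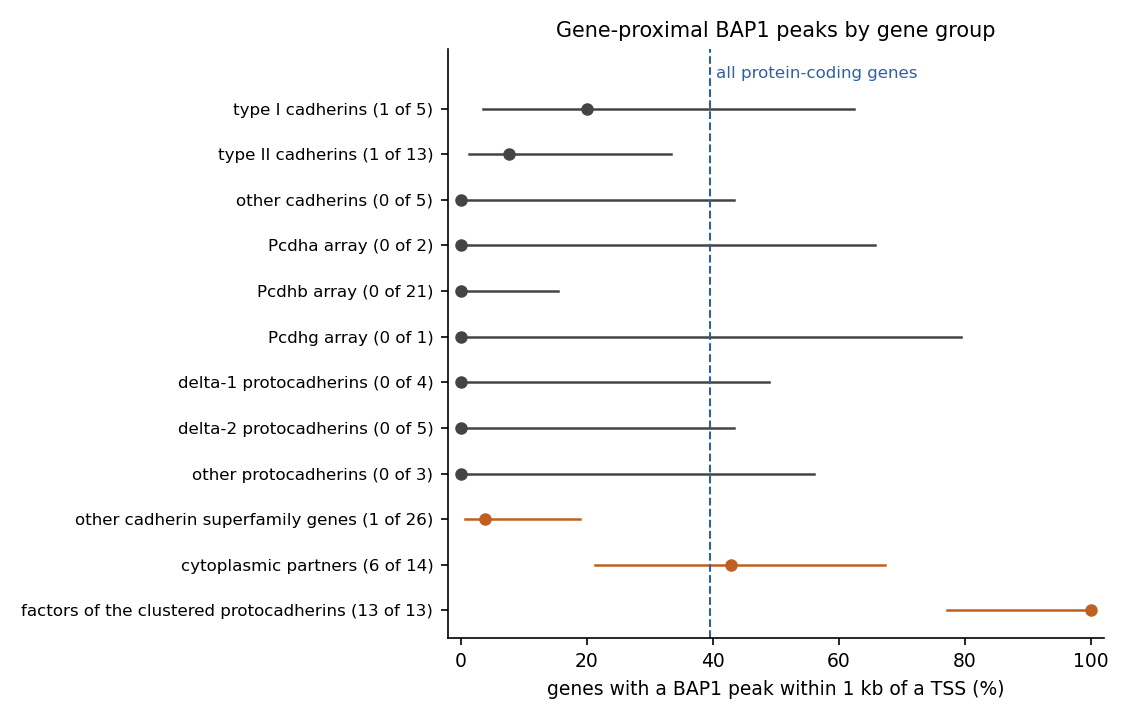
Share of genes with a BAP1 peak within 1 kb of a TSS (x axis, %) in each class of cadherin and protocadherin (grey) and in 3 lists of other genes (orange). Points are shares, lines are 95% Wilson intervals for counting error and the dashed line is the 39.6% of all protein-coding genes, which the intervals of the *Pcdhb* array (0 of 21) and the type II cadherins (1 of 13) do not reach. The *Pcdhb* interval does include the 14.1% of protein-coding genes with a CpG ratio below 0.6. All intervals take each gene as counted on its own, though some genes share a stretch between neighboring peaks.

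The level of CpG dinucleotides at the TSS is a property of the genome that moves with BAP1 peaks over all genes. Of protein-coding genes with a CpG ratio of at least 0.6, 69.9% had a gene-proximal peak (7134 of 10199), against 14.1% below that ratio. Among the genes studied here, 18 were CpG-rich and 1 of them, *Cdh24*, had a peak (5.56%, 95% interval 0.988 to 25.8). The other 41 also held 1, *Cdh15* (2.44%, 95% interval 0.432 to 12.6). The highest ratios belonged to *Cdh4* (R-cadherin) at 0.901, *Cdh2* at 0.869 and *Pcdh7* at 0.865. In that range, from 0.8 up to 1.0, 76.5% of all protein-coding genes had a gene-proximal peak and 0 of these 3 did. From 0.6 to 0.8 the share was 64.5% over all genes and 1 of 15 here. From 0.4 to 0.6 it was 31.9% against 0 of 17, from 0.2 to 0.4 11.8% against 1 of 17, and below 0.2 4.84% against 0 of 7.

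**Figure D2:**
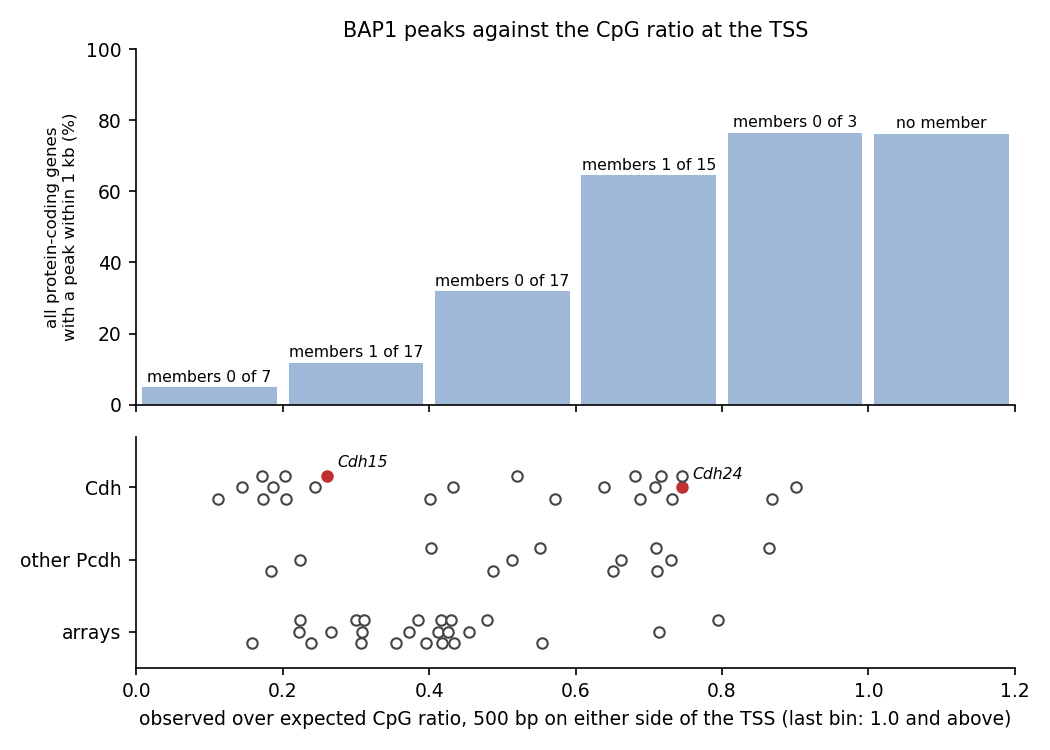
Upper panel, share of all protein-coding genes with a BAP1 peak within 1 kb (y axis, %) by the observed over expected CpG ratio around the TSS (x axis), with the number of cadherin and protocadherin genes bound in each bin. Lower panel, the ratio of each of the 59 genes, filled in red for *Cdh15* (0.261) and *Cdh24* (0.745), which are the genes with a peak.

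The arrays were crossed by 2 peaks. The span from the first to the last base of the array genes, chr18:37089939-38001527, is 0.912 Mb long and held 2.19 ± 1.55 peaks per Mb, with the Poisson error of a count given here and below. The 1 Mb before it held 26 peaks, the 1 Mb after it 13, and chromosome 18 as a whole 3.78 ± 0.204 per Mb. The density in the span was thus below that of both flanks by more than the counting errors, and below that of the chromosome by about 1 such error. GENCODE M1 gives the *Pcdha* isoforms as the models *Pcdha11*, with 10 TSSs, and *Pcdha3*, with 1, the *Pcdhb* genes as 21 models with 25 TSSs, and the *Pcdhg* isoforms as *Pcdhgc5* with 10 TSSs. None of these 46 TSSs had a peak within 1 kb, which would allow a share of up to 6.52% if each TSS counted on its own. Many lie close together, and 23 array genes share 1 stretch between peaks, so this limit is too narrow.

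The first of the peaks in the span, 37803815 to 37804014, lay 57 bp from the TSS of *Taf7*, which encodes a subunit of the general transcription factor TFIID and sits between the *Pcdhb* and *Pcdhg* arrays, 714 kb from the array start. It was the nearest peak of all 21 *Pcdhb* genes, at 126 to 379 kb. The second, 37985000 to 37985199, lay 895 kb from the array start in intron 1 of 2 of the longest *Pcdhg* transcript, where all 10 annotated transcripts cross it, and 5.79 kb from the nearest TSS. Of the other genes that start inside the span, *Slc25a2*, a mitochondrial carrier gene, had its nearest peak at 5.54 kb, *3222401L13Rik* at 11.6 kb and *Gm10545* at 219 kb, and the noncoding *SNORA40*, *Gm16882* and *Gm10544* at 61.7, 57.2 and 377 kb. *Taf7* had a CpG ratio of 1.07.

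The stretch between the last peak before the arrays and the peak at *Taf7* was 842 kb long and held 27 protein-coding genes, 23 of them members of the arrays. The peak at its left end lay 99 bp from the *Vault* RNA gene and was the nearest of *Pcdha11*, at 129 kb, and *Pcdha3*, at 144 kb. Of 13143 stretches between neighboring peaks on a chromosome, 755 (5.74%) were as long or longer. Promoter composition differed among the arrays: all 11 *Pcdha* TSSs were CpG-rich (ratio 0.606 to 0.794), 6 of 10 *Pcdhg* TSSs were (0.247 to 0.893), and 0 of 25 *Pcdhb* TSSs (0.158 to 0.554). Peaks were missing from CpG-rich and CpG-poor array TSSs alike. In the flanks, 14 of 23 protein-coding genes before the arrays had a gene-proximal peak, among them *Hars* and *Hars2* (histidyl-tRNA synthetases) and *Zmat2*, and 10 of 12 after them, not counting the protocadherins *Pcdh1* and *Pcdh12* themselves. *Hdac3*, a histone deacetylase gene, and *Diap1* were among the latter. The flank counts stand beside the 39.6% of all protein-coding genes with a gene-proximal peak.

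**Figure D3:**
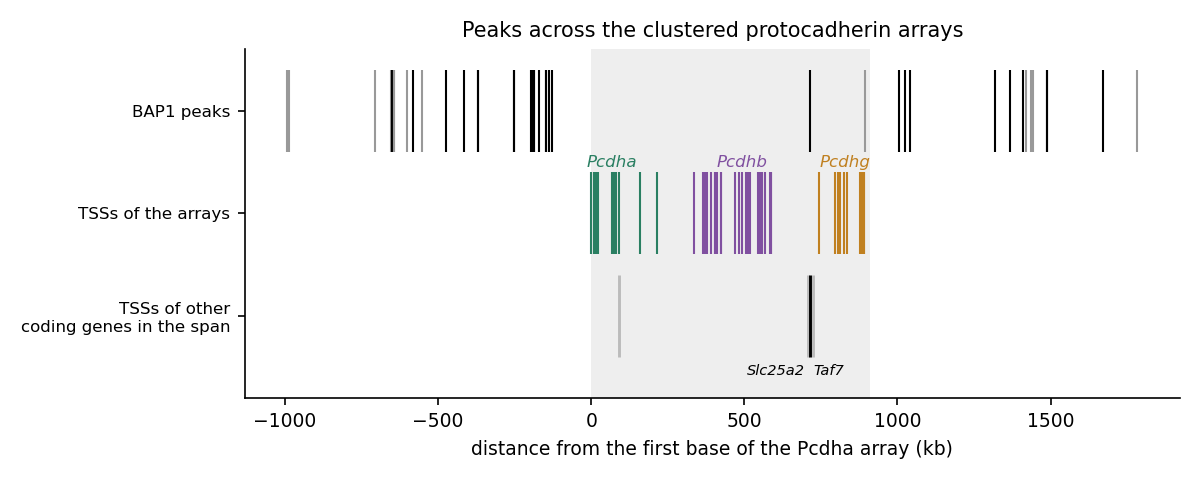
BAP1 peaks (top row, black within 1 kb of a TSS, grey beyond), TSSs of the *Pcdha*, *Pcdhb* and *Pcdhg* arrays (middle row) and TSSs of other protein-coding genes inside the span (bottom row, black with a peak within 1 kb), by distance from the first base of the *Pcdha* array in kb. The shaded span of 0.912 Mb holds 2 peaks, one of them at *Taf7*, against 26 in the 1 Mb before and 13 in the 1 Mb after.

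Genes without a gene-proximal peak were mostly far from any. Over the 57, the nearest peak lay 5.79 to 3636 kb from a TSS, with a median of 223 kb, against a median of 83.0 kb over all protein-coding genes without one. It lay within 50 kb for 7 of them (12.3%, against 38.5%) and beyond 1 Mb for 10 (17.5%, against 4.31%). All 10 were outside the arrays, where they made up 30.3% of 33 genes and the median distance was 349 kb.

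Among type I cadherins, *Cdh1* had its nearest peak at 29.4 kb, inside its own second intron, *Cdh4* at 82.9 kb and *Cdh3* (P-cadherin) at 95.5 kb. *Cdh2* had none nearer than 1887 kb, where the peak lay 44 bp from the TSS of *Taf4b*. Type II cadherins spanned the widest range among the cadherins. Their nearest peaks were at 53.0 kb for *Cdh22*, 147 kb for *Cdh5* (a peak 15 bp from the TSS of *Tk2*, the mitochondrial thymidine kinase gene), 776 kb for *Cdh11*, 1347 kb for *Cdh9*, and 3148 and 3209 kb for *Cdh7* and *Cdh19*. The others were *Cdh20* at 113 kb, *Cdh18* at 204 kb, *Cdh6* at 349 kb, *Cdh10* at 691.5 kb, *Cdh8* at 769 kb and *Cdh12* at 778 kb. *Cdh7* and *Cdh19* lay in the same stretch without a peak, as did *Cdh6* with *Cdh9*, *Cdh10* with *Cdh12*, *Cdh11* with *Cdh5*, *Cdh26* with *Cdh4*, and *Cdh3* with *Cdh1*. Of the remaining cadherins, *Cdh16*, known from kidney, lay 7.03 kb from a peak, which was itself 107 bp from the TSS of *Rrad*, a small GTPase gene. *Cdh23*, an adhesion protein of the inner ear's hair cells, had its nearest peak at 8.67 kb, within its own gene body. *Cdh13* (T-cadherin, which is held to the membrane by a lipid anchor) followed at 67.0 kb, *Cdh17* (an intestinal cadherin) at 199 kb and *Cdh26* at 352 kb.

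The delta protocadherins, which are expressed in the brain and have conserved motifs in their cytoplasmic tails, held both near and far members. *Pcdh7* lay 25.4 kb and *Pcdh1* 38.2 kb from a peak, while *Pcdh9* lay 1891 kb and *Pcdh11x* 1996 kb away. Of the delta-2 genes, *Pcdh8* lay at 184 kb, *Pcdh19*, a gene of X-linked epilepsy, at 370.1 kb, *Pcdh17* at 1316 kb, *Pcdh18* at 1468 kb and *Pcdh10* at 3636 kb, the farthest of the 59. *Pcdh10* and *Pcdh18* sat in 1 stretch of 9482 kb without a peak, and no stretch between neighboring peaks was longer. *Pcdh12*, an endothelial protocadherin, had a peak at 12.3 kb, at the promoter of *Rnf14*, *Pcdh15*, the partner of *Cdh23* in hair cells, at 249.5 kb, and *Pcdh20* at 1054 kb.

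**Figure D4:**
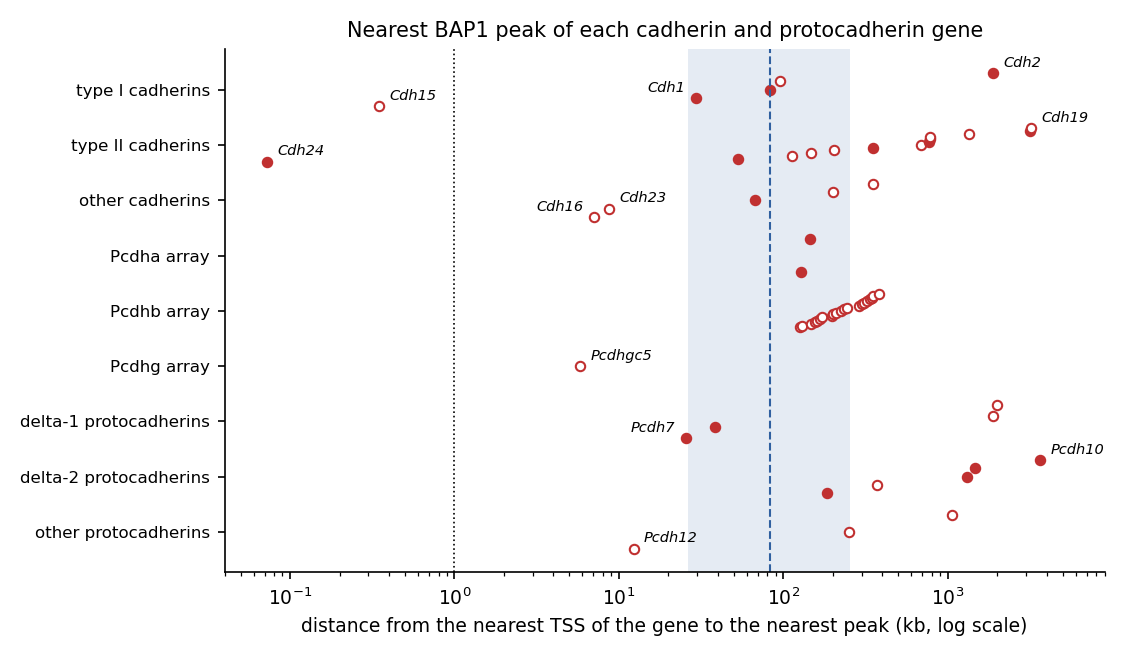
Distance from each of the 59 genes to its nearest BAP1 peak (x axis, kb, log scale) by class, with CpG-rich genes filled. The dotted line marks 1 kb, and the dashed line and band the median (83.0 kb) and the middle 50% (26.3 to 253 kb) of all protein-coding genes without a gene-proximal peak. *Cdh24* and *Cdh15* alone lie left of 1 kb.

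For 41 of the 57 genes the nearest peak was itself within 1 kb of a TSS of another gene, a protein-coding one in 39 cases, and for 16 it was beyond 1 kb from every TSS. The genes shared nearest peaks, so these were 36 different peaks in all. The peak at *Taf7* alone counts for 21 of the 41 genes. The peaks beyond 1 kb were all different and so made up 16 of the 36. Over the whole list, 3091 of 13164 peaks lay beyond 1 kb from every TSS. The surroundings also differed from those of most genes. Within 500 kb of the TSS, the genes had a median of 2 peaks (range 0 to 31), against 8 over all protein-coding genes. None was found within that distance for 16 genes (27.1%, against 8.17%), all of them outside the arrays, where this was 45.7% of 35.

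The genes outside the arrays also had few protein-coding neighbors. They had a median of 1 other protein-coding gene within 500 kb, against 15 over all protein-coding genes, and 13 of the 35 had none (37.1%, against 1.14%). The array genes, which count each other, had a median of 28. Where neighbors that are not cadherins or protocadherins existed, 125 of 242 had a gene-proximal peak (51.7%, 95% interval 45.4 to 57.9), against 39.6% of all protein-coding genes. Around the arrays this was 19 of 31, and around the genes outside them 112 of 219, with neighbors of both counted in each. Outside the arrays, 21 of the 35 genes had at most 2 such neighbors and at most 2 peaks within 500 kb. No such joint count was made over all protein-coding genes. The bound genes lay at the other end: *Cdh24* had 39 neighbors, 20 of them bound, and 25 peaks, and *Cdh15* had 31 neighbors, 19 of them bound, and 31 peaks. They had the most peaks of the 35, with *Cdh22* (19 peaks, 17 of 29 neighbors bound), *Cdh1* (16 peaks, 13 of 19) and *Cdh3* (15 peaks, 12 of 17) next and without a gene-proximal peak. The part that gene density plays in the low count was not tested.

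**Figure D5:**
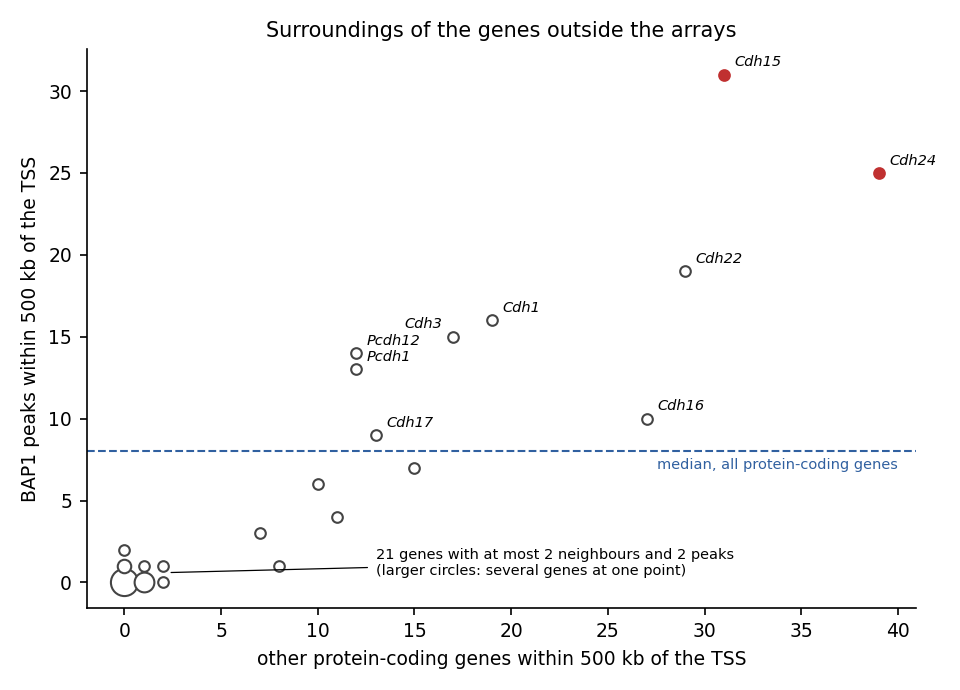
BAP1 peaks (y axis) against other protein-coding genes that are no cadherin or protocadherin (x axis) within 500 kb of the TSS of each of the 35 genes outside the arrays, with larger circles where several genes share a point. *Cdh24* (25 peaks) and *Cdh15* (31 peaks), the genes with a gene-proximal peak, are filled in red and lie above the median of 8 of all protein-coding genes.

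Inside the gene bodies and more than 1 kb from every TSS, 6 peaks were found over 9.67 Mb, or 0.620 ± 0.253 per Mb, against 1.13 ± 0.0337 per Mb over all protein-coding gene bodies (1123 peaks in 995 Mb). With peaks kept 2 kb from every TSS, the density over all gene bodies was 0.922 and that of the cadherins and protocadherins was again 0.620. All 6 were intronic. *Cdh23* held 3, and *Cdh18*, *Cdh1* and *Pcdhgc5* 1 each, so most of the long genes, such as *Pcdh15* over 1550.4 kb and *Cdh13* over 1041 kb, held none. The 5 in *Cdh23*, *Cdh18* and *Cdh1* are printed in the same way, since most of them differ in composition from the promoter peak of *Cdh24*.
Cdh23 intron 28 peak, chr10:59858350-59858549, minus strand: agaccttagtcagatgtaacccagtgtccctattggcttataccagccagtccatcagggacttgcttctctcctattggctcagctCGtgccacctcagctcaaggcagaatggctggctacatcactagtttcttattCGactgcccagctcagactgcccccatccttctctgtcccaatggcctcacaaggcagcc
Cdh23 intron 14 peak, chr10:59908044-59908243, minus strand: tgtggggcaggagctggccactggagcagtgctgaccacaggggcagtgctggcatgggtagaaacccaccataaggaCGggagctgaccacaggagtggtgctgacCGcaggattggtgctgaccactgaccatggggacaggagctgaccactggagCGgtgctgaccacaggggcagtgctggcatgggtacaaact
Cdh23 intron 2 peak, chr10:60131450-60131649, minus strand: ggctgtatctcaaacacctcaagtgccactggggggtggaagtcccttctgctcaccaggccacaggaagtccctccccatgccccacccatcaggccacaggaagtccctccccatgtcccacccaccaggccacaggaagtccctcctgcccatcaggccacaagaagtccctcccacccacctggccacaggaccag
Cdh18 intron 1 peak, chr15:22682368-22682567, plus strand: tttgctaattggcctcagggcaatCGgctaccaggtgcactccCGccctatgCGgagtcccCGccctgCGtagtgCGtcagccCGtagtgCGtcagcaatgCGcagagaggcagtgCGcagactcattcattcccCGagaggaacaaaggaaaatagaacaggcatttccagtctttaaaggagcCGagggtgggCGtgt
Cdh1 intron 2 peak, chr8:109157314-109157513, plus strand: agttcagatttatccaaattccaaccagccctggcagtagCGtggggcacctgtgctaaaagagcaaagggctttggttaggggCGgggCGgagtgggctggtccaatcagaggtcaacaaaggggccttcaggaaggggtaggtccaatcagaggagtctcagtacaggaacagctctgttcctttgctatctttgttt
The peaks in introns 28, 14 and 2 of the 69 of the longest *Cdh23* transcript held 2, 3 and 0 CpG dinucleotides. Those in introns 14 and 2 were made of short repeated units: 1 word of 12 letters occurred 3 times in each. Such a word was found at least 3 times in 11.4% of all peaks and in 35.6% of the 3091 peaks beyond 1 kb from every TSS. The peak in intron 1 of 6 of *Cdh18* held 13 CpG dinucleotides (ratio 0.788) and lay 204 kb from the gene's own nearest TSS. The peak in intron 2 of 15 of *Cdh1* held 3, with the SP1/KLF motif and a CCAAT box, and lay 29.4 kb from the TSS.

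Motifs of factors known from promoters were looked for on both strands from 250 bases before to 50 after the TSS of each gene. The letters searched were AAGATGGCG for YY1, CCGGAAG for ETS factors, GCGCATGCG for NRF1, TGACGTCA for the cyclic AMP response element (CRE), GGGCGGGG for SP1 and KLF factors, CACGTG for the E-box, CCAAT for the box of that name, TGTTTAC for forkhead factors and AGGGGGC as a CTCF core, and no motif holds another. The first 4 were in 0 of the 59 promoters. Over all 22367 promoters, ETS letters were in 10.8%, CRE in 2.32%, NRF1 in 2.09% and YY1 in 1.97%. Over genes with a gene-proximal peak these were 22.5%, 3.92%, 4.41% and 4.25%. Over genes without one, as 57 of the 59 were, they were 3.12%, 1.27%, 0.570% and 0.481%. At shares that low, a count of 0 in 59 promoters says little about the cadherins and protocadherins. Among CpG-rich genes, the ETS letters were in 24.7% of the 7134 with a peak, in 5.09% of the 3065 without, and in 0 of the 18 cadherins and protocadherins. The SP1/KLF letters were in 9 of those 18, among them *Cdh24*, *Cdh2*, *Cdh4* and *Pcdh10*, against 38.7% of all CpG-rich genes, and so were not scarce there. Counted over all 59 promoters, the SP1/KLF letters were in 9 (15.3%), against 22.6% of all promoters. CCAAT was in 25 of the 59 (42.4%, against 37.3% of all promoters), the E-box in 1 (against 7.79%), the forkhead letters in 1 (against 2.97%) and the CTCF core in 9 (15.3%, against 12.2%). At the 46 array TSSs the CTCF core was found at 2, CCAAT at 13 and SP1/KLF at 1. These are matches of letters, not sites, and a missing match says only that the letters are not in the window.

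Lists of genes related to the cadherins by structure or function were counted in the same way, beside the 39.6% of all protein-coding genes. Of the rest of the cadherin superfamily, 25 of 26 listed symbols were matched, giving 26 genes since *Cdhr4* has 2 identifiers. A gene-proximal peak was found at 1 of them (3.85%, 95% interval 0.682 to 18.9), *Celsr3*, at 748 bp downstream of its TSS, and none at the *Fat*, *Clstn*, *Dsc* or *Dsg* genes. Of these 26, 8 were CpG-rich, and *Celsr3* was 1 of them, beside the 69.9% of all CpG-rich genes with a peak. The rest had a CpG ratio below 0.6, where 14.1% of all protein-coding genes had a peak. The interval counts both *Cdhr4* identifiers and takes the neighboring *Dsc* and *Dsg* genes as counted on their own, so it is too narrow. Of 14 cytoplasmic partners, 6 had a peak (42.9%, 95% interval 21.4 to 67.4). They were β-catenin (*Ctnnb1*, 36 bp downstream of the TSS), α-catenin (*Ctnna1*, 39 bp upstream), *Ctnna3* (10 bp downstream), vinculin (*Vcl*, 105 bp upstream), *Arvcf* and *Pkp4*, the last of which shares its peak with *Ccdc148*. Of the 14, 11 were CpG-rich and 5 of these had a peak, beside the 69.9% of all CpG-rich genes. No gene-proximal peak was found at p120-catenin (*Ctnnd1*), plakoglobin (*Jup*), desmoplakin (*Dsp*), *Ctnna2*, *Ctnnd2* or the plakophilins *Pkp1*, *Pkp2* and *Pkp3*.

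Of the genes for factors known to act on the clustered protocadherins, 13 of 13 had a gene-proximal peak (Wilson interval 77.2 to 100.0). The list was chosen with earlier results of these data known. Of the 13, 12 were CpG-rich and all 12 had a peak, beside the 69.9% of all CpG-rich genes. Among the 13 genes, the peak at *Ctcf* lay 213 bp upstream of the TSS. That at *Smchd1*, whose product is known to repress the arrays, lay 152 bp upstream. Those at the cohesin genes *Rad21* and *Smc3* lay 33 and 301 bp upstream. *Smc1a* shares its peak, 487 bp downstream of its TSS, with *Ribc1*. The arrays themselves, on which these factors are known to act, held none at 46 TSSs. A relation between these counts was not tested.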

How the data were processed

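Reads of the anti-BAP1 and anti-FLAG immunoprecipitations were mapped by the authors to mm9 with Bowtie 1.0.0, and peaks were called with MACS (version 1.4.2 per the processing notes) against input DNA of the same cells. What the authors deposited is 1 list of 4 columns with each peak's chromosome, start, end (in bp) and name, without score, height or p-value, pooled over both immunoprecipitations. The threshold and the rule that joined them are not given in the sources used here, so how the counts would move under another threshold is unknown. The depth is unknown. Columns that matched no sample numbered 0. Each peak is 200 bp wide.

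The genome given (NCBIM37) is the same build, and 0 peaks ended beyond a chromosome. Distances ran from the peak's middle to all TSSs of GENCODE M1. The CpG ratio covered 500 bp before and after the TSS of the longest transcript, which also placed genes in stretches and neighborhoods. No test was run: there are no replicates, and genes are not replicates. A count of 0 is given with the share that 3 counts would make, which takes each gene or TSS as counted on its own. The alternatives were windows of 500 bp, 2 kb and 5 kb, the peak's edge, 1 TSS per gene, protein-coding transcripts, peaks within 500 bp merged, other CpG rules, a longer array span and a wider zone left out around TSSs.

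The genes, lists and motifs were chosen with earlier results of these data known. Genes named by rule were those with a gene-proximal peak, those with a peak within 10 kb of a TSS, the 5 with most gene-body peaks (4 genes had any), the non-member genes in the array span, and *Cdh1*, *Cdh2*, *Cdh5*, *Cdh11*, *Pcdh9* and *Pcdh15*; others were named after their values were seen. A further list of genes, left out for a reason unrelated to its values, is not reported here. The code was tested on simulated data. Python 3.11.15, pandas 2.3.3, numpy 2.4.6, statsmodels 0.14.6 and matplotlib 3.10.9 were used.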

Additional observations from a re-analysis of the deposited data

How the results depend on the processing

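*Cdh24* and *Cdh15* were the genes with a peak, 2 of 59, under windows of 500 bp, 2 kb and 5 kb, with the edge of the peak, with 1 TSS per gene, with TSSs of protein-coding transcripts and with merged peaks, while the share over all protein-coding genes ranged from 37.0% (1 TSS per gene) to 42.5% (5 kb). With CpG-rich taken as a ratio of at least 0.75, the share of CpG-rich cadherins and protocadherins with a peak moved from 5.56% to 0.0%, or 0 of 4 genes, since *Cdh24* has a ratio of 0.745; over all protein-coding genes it was 74.8%. With the highest ratio over all TSSs it was 1 of 23, and with a window of 2 kb 1 of 18. The array span held 2 peaks with 50 kb added on either side and after merging, and the gene bodies 6 with 2 kb left out around TSSs. No paired analysis was possible because the list pools both immunoprecipitations, each sequenced once, and the numbers shared by the knockout and input samples belong to samples not analysed here. For the same reason no sample could be left out. A stricter peak threshold was not tried, since the list used has no scores. The paper's supplement describes read intensities for each peak, which were not used here. Depth, which limits how many peaks are listed, is unknown.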
